A study of Equus caballus with 68 samples.

Results

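The IL-10 and IL-4 receptor signaling genes were followed in horse bone marrow mononuclear cells (BMNC) before and during culture in healthy or inflamed joint fluid. The set was fixed by name and held 10 genes: the cytokine IL10, the receptor chains IL10RA, IL10RB, IL4R and IL13RA1, the transcription factors STAT3 and STAT6, and the feedback inhibitors SOCS1, SOCS3 and CISH. All 10 were found among the 30371 genes listed, and all 10 were among the 14570 genes that passed the filter on low values and were tested.

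IL-10 is a cytokine by which macrophages limit inflammation. It binds a receptor built from IL10RA and IL10RB, which signals mainly through STAT3 and induces SOCS3, an inhibitor that shuts down signaling by the IL-6 family of cytokines. IL-4 and IL-13 act on receptors that share the IL4R chain, one form of which pairs IL4R with IL13RA1, and signal through STAT6 to turn macrophages toward the alternatively activated state. SOCS1 and CISH are further feedback inhibitors, induced by interferons and by STAT5-activating cytokines, respectively. In the inflamed joint these signals are studied for their part in the resolution of synovitis.

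Cells came from the sternal marrow of 8 Thoroughbred horses, 6 geldings and 2 mares of 3 to 9 years. Uncultured BMNC (BMNC 0 h) gave 8 libraries. The rest of the cells of each horse were cultured in that horse's own undiluted synovial fluid for 48 hours, 96 hours, 6 days or 10 days. The fluid was either normal (SF) or inflamed (ISF), with 7 libraries per fluid at the first and last of these times and 8 at the others. SF came from untreated middle carpal joints and ISF from radiocarpal joints injected with lipopolysaccharide, so the fluids also differed by joint. Cells were not sorted and horses were not pooled. Each of the 68 libraries stands for 1 horse, fluid and time, and 6 horses are in all 9 groups, while Moon lacks the cultures of 48 hours and Flash those of 10 days. Levels are given as GeTMM, a read density per kilobase that the authors scaled across libraries, so that levels of different genes can be compared. Fold changes are on the log2(GeTMM + 1) scale, followed by their standard error (SE), and understate the change of genes at low levels. The false discovery rate (FDR) is that of limma over all genes tested, and a gene was called where it was under 0.05.

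Libraries held 15.7 to 36.0 M reads on genes, and the fewest reads behind a value were 4 for IL10, 8 for SOCS1 and 10 for CISH, against at least 34 for each of the other 7 genes. By a profile of 200 genes that differ between horses, of 68 libraries, 66 lay closest to the horse they were labelled with, and the ISF libraries at 96 hours labelled Dealings and Dreamer lay closest to each other's horse. The SF library of Moon at 6 days stood apart by its scale, with a GeTMM total of 2321940. Results of named genes at 96 hours and 6 days whose call these libraries decided, or whose called fold change they moved by over 1.5 times, are given with and without them. Most fold changes that were not called are given with all libraries only. Some of these near 0, such as that of CISH at 96 hours, moved by more than this ratio. The macrophage marker list rose in every culture: its mean log2 level over 7 genes was 3.98 ± 0.298 at 0 hours, 10.9 ± 0.284 in ISF at 6 days and 10.5 ± 0.161 in SF at 6 days (SD, n = 8 for each). In bulk RNA, fewer cells of a type and less RNA per cell cannot be told apart.

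Most calls of the set over time came in the first 48 hours. From 0 to 48 hours in ISF, 6 of the 10 genes rose and 2 fell, against 25.3% of all genes tested that rose and 27.4% that fell. In SF, 6 of 10 rose and 2 fell, against 22.3% and 23.1% of all genes. IL10, IL10RA, IL10RB, IL4R and SOCS3 rose in each fluid, IL13RA1 and CISH fell in each, STAT3 was called in ISF and STAT6 in SF. Since both fluids start from the same libraries, the comparison of the fluids at 48 hours tests that difference, and it was not called for STAT3 (FDR 0.816) or STAT6 (FDR 0.340). The median log2 fold change of the 10 was 0.63 in ISF and 0.58 in SF, where that of all genes was -0.028 and -0.008. These counts are therefore not independent. In this interval all 7 macrophage markers were called higher and all 4 tested erythroid markers lower, in each fluid, as were 4 of 5 T cell markers. Their part in the changes of the set was not tested.

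**Figure D1:**
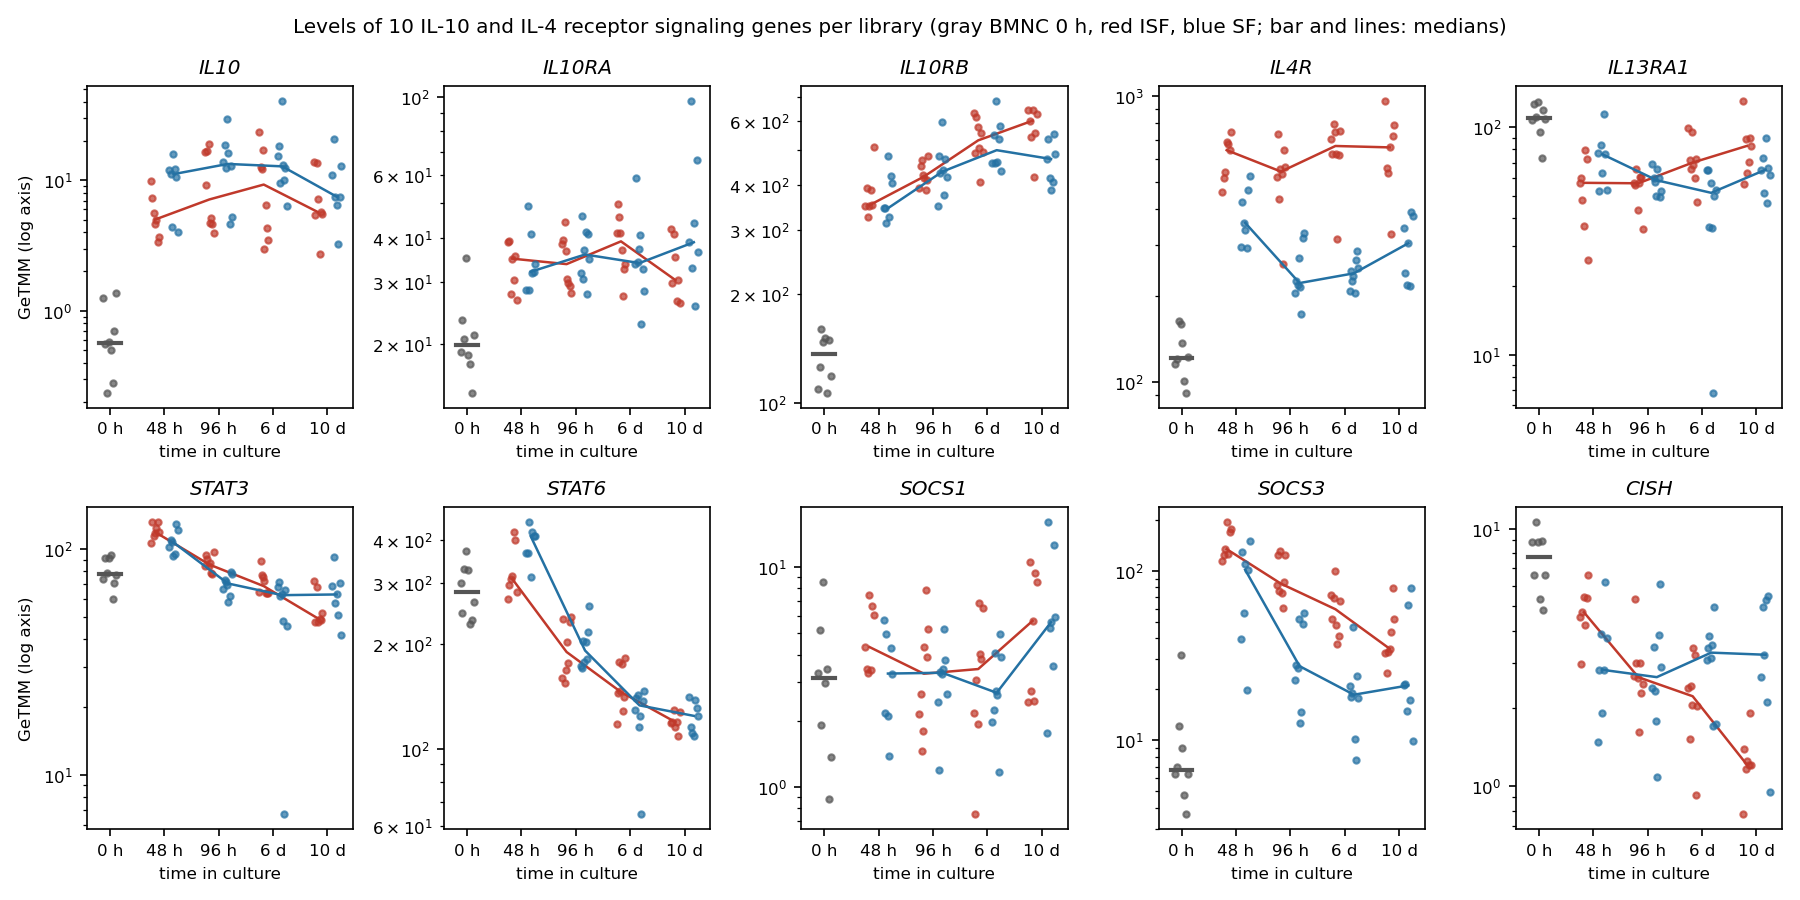
Level of each of the 10 genes in every library, in GeTMM on a log axis, at 0 hours (gray) and over 4 time points in ISF (red) and SF (blue). Points are libraries, and the bar and the lines give medians. IL10, IL10RB and IL4R lay above their 0-hour range in every cultured library, IL4R parted by fluid, and the SF library of Moon at 6 days was far below the others for IL13RA1 and STAT3.

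IL10 (ENSECAG00000009179) was close to absent in fresh BMNC and was present in every culture. At 0 hours the lowest level was 0.234 GeTMM, the median 0.562 and the highest 1.36, from 4 to 31 reads. At 48 hours the lowest, median and highest were 3.35, 5.00 and 9.89 in ISF, against 4.01, 11.2 and 16.0 in SF. No cultured library overlapped the 0-hour range, and the mean of ISF at 48 hours was 8.28 times that at 0 hours, and that of SF 14.8 times. The log2 fold change from 0 to 48 hours was 1.95 ± 0.37 (SE) in ISF (FDR 1.06e-05) and 2.63 ± 0.37 in SF (FDR 2.25e-08). With a pseudocount of 0.1 in place of 1, these became 2.96 and 3.73. No later interval was called in either fluid.

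Mean IL10 was lower in ISF than in SF at all 4 time points, and no difference was called. Mean levels at 6 days were 10.3 ± 7.34 GeTMM in ISF against 15.8 ± 10.8 for SF (SD, n = 8 both). In ISF the lowest, median and highest levels were 2.99, 9.29 and 23.4, and in SF they were 6.40, 12.8 and 41.0. Ranges overlapped widely, with 3 of 8 ISF libraries below the lowest SF library. The log2 fold change of ISF against SF was -0.68, -0.50, -0.66 and -0.31 at 48 hours, 96 hours, 6 days and 10 days, with FDR from 0.166 to 0.635. At 6 days the 95% interval was -1.36 to 0.05. Within horses, IL10 was lower in ISF in 6 of 7 horses at 48 hours and in 6 of 8 at 6 days, with an exact permutation p of 0.0625 each time and 0.132 after adjustment over the 40 tests of members and time points. In the fit with the horse as a replicate block, the difference at 6 days passed the threshold, at an FDR of 0.0494.

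IL10 varied widely between horses. Within a group the highest library held 2.96 to 7.83 times the lowest. Catnip lay above the group mean in all 9 of its groups, by 0.61 on the log2 scale on average, and Moon below it in all 7 of its groups, with a mean deviation of -0.75. The highest level over all libraries, 41.0 GeTMM, was that of Flash in SF at 6 days. Dealings, Ollie and RimRun were lower in ISF at all 4 time points, and Flash was lower at the 3 it has. Dreamer was higher in ISF at all 4, by 0.31 to 0.79 on the log2 scale. Catnip was lower at 48 hours and higher at 96 hours, 6 days and 10 days, and Lurie and Moon were mixed. For Dealings and Dreamer this counts the ISF libraries at 96 hours that lay closest to each other's horse.

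IL10RB and IL10RA, the chains of the IL-10 receptor, rose in the first 48 hours in both fluids. IL10RB (ENSECAG00000007359) is the chain shared with the receptors for IL-22, IL-26 and the interferon lambdas. Its level at 0 hours was 106 to 160 GeTMM with a median of 136, and after 48 hours in ISF it was 326 to 510 with a median of 351, against 313 to 479 with a median of 344 in SF. It rose by 1.51 ± 0.11 in ISF (FDR 2.40e-18) and 1.49 ± 0.11 in SF (FDR 5.13e-18) on the log2 scale, with no overlap with the 0-hour range. Means went on to 576 ± 80.3 GeTMM in ISF (SD, n = 7) and 465 ± 63.7 in SF (SD, n = 7) at 10 days. At that time point 5 of 7 ISF libraries lay above the highest SF library, Moon was lowest in ISF at 420, and all 7 horses were higher in ISF. The difference was called at 0.31 ± 0.11 (FDR 0.0475), close to the threshold, and was lost under 9 of 17 alternatives, with FDR up to 0.653. Among them were those without Catnip, Dealings, Dreamer, Lurie or RimRun. The call was also lost with values rescaled to 1 total, with only the groups compared and without the filter on low values. Over the alternatives the log2 fold change ran from 0.095 to 0.36. At the 3 earlier time points IL10RB of ISF and SF differed by at most 0.04 on the log2 scale, and the 95% interval at 6 days was -0.17 to 0.25. With the replicate block, the rises of IL10RB from 96 hours to 6 days in ISF (0.30, FDR 0.0288) and from 48 to 96 hours in SF (0.27, FDR 0.0281) also passed.

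IL10RA (ENSECAG00000015030), the chain that binds IL-10, stood lower throughout. At 0 hours it ran from 14.5 over a median of 19.8 to 34.9 GeTMM, while ISF libraries of 48 hours ran from 26.7 over 34.9 to 39.1 and SF libraries from 28.4 over 32.0 to 49.0. Flash was the highest library at 0 hours, and the ranges overlapped through it alone. IL10RA rose by 0.65 ± 0.18 in ISF (FDR 0.00140) and 0.71 ± 0.18 in SF (FDR 0.000695), on the log2 scale. Per length, IL10RB held 5.90 times the level of IL10RA in the median library at 0 hours and 18.3 times in ISF at 10 days.

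At 10 days the mean level of IL10RA was 33.0 ± 6.61 GeTMM in ISF (SD, n = 7), against a mean of 48.8 in SF. SF levels ran from 25.6 over 38.8 to 97.7, and ISF levels from 26.2 over 30.3 to 42.4, so that the groups overlapped and the spread in SF was wider. ISF against SF gave a log2 fold change of -0.44 ± 0.18 and was not called (FDR 0.0751), while the replicate block gave an FDR of 0.0155. Dealings was highest in SF, and without that horse the fold change was -0.23 ± 0.17 (FDR 0.397). Without Dreamer or Moon it passed the threshold, with FDR of 0.0459 and 0.0250, as it did with values rescaled to 1 total (-0.65, FDR 0.0318). The T cell list, which is described with CISH, also differed between the fluids at this time point, and its part in the level of IL10RA was not tested.

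IL4R (ENSECAG00000021525), the chain shared by the IL-4 and IL-13 receptors, was the only gene of the set called between the fluids at all 4 time points. It was higher in ISF at each, and in every horse present. In ISF against SF, 1 gene of the set was called higher at 48 hours and none lower, 2 and none at 96 hours, 4 and none at 6 days, and 2 and 1 at 10 days. Among all genes tested, 0.872% were higher and 0.81% lower at 48 hours. At 96 hours 6.16% were higher and 4.3% lower, at 6 days 16.7% were higher and 13.6% lower, and at 10 days 9.95% were higher and 10.8% lower. The median log2 fold change of the 10 genes over these time points was 0.09, -0.01, 0.22 and -0.12, and that of all genes -0.016, -0.003, 0.000 and -0.022. As a set the 10 genes did not move 1 way: 6, 5, 8 and 4 of them had a fold change above 0.

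In fresh cells IL4R ran from 91.2 over a median of 121 to 163 GeTMM. Every cultured library lay above that range. IL4R rose by 2.28 ± 0.18 in ISF (FDR 1.18e-16) and 1.61 ± 0.18 in SF (FDR 5.33e-11) on the log2 scale at 48 hours. Levels then were 461 to 748 GeTMM with a median of 645 in ISF, and 293 to 525.7 with a median of 359 in SF, so 5 of 7 ISF libraries lay above all SF libraries. The difference was 0.67 ± 0.19 (FDR 0.0494). It missed the threshold under 11 of 17 alternatives, among them leaving out any of the 7 horses present, with FDR up to 0.244.

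From 48 to 96 hours IL4R fell in SF by 0.66 ± 0.18 on the log2 scale (FDR 0.00416), while the change in ISF was -0.24 ± 0.18 (FDR 0.415). At 96 hours ISF ran from 258 over 543 to 733 GeTMM and SF from 172 over 221 to 332. At this time 7 of 8 ISF libraries lay above the highest SF library, the exception being Moon. The difference was 1.10 ± 0.18 (FDR 1.18e-05), and 1.05 ± 0.19 (FDR 0.000160) without the ISF libraries labelled Dealings and Dreamer. At 6 days the groups did not overlap, with 315 to 796 and a median of 667 GeTMM in ISF against 203 to 285 and a median of 239 in SF. ISF was higher by 1.40 ± 0.18 on the log2 scale (FDR 8.99e-09), and the ISF mean was 2.71 times that of SF. At 10 days 6 of 7 ISF libraries lay above the SF range, medians were 660 and 305, and the difference was 1.09 ± 0.19 (FDR 1.62e-05). Within horses the difference ranged from 0.25 in Moon to 1.82 at 6 days. The exact permutation p was the smallest that these numbers of horses allow, 0.00781 with 8 and 0.0156 with 7, and 0.0781 after adjustment, which was also the lowest adjusted value of the 40. Without the pairs of Dealings and Dreamer at 96 hours, all 6 horses were higher in ISF, with an exact permutation p of 0.0313. Macrophage markers were compared at the same time points: of 7, 1 was called higher and none lower in ISF at 48 hours. At 96 hours 2 were called higher and 1 lower, at 6 days 1 was higher and 1 lower, and at 10 days 1 was higher. Over the 4 time points the mean log2 level of this macrophage list was 9.5, 10.5, 10.9 and 11 in ISF. In SF it was 8.95, 10.1, 10.5 and 10.6, with SD of 0.109 to 0.369 over both fluids. Of 4 cell cycle markers tested, 2 were called higher in ISF at 96 hours and 3 at 6 days, and none at 48 hours or 10 days. Their mean log2 level at 6 days was 4.87 ± 0.447 in ISF against 3.97 ± 0.735 for SF (SD, n = 8). Of 6 neutrophil precursor markers tested, 5 were called lower in ISF at 6 days and 3 at 10 days, and none before, with a mean log2 level at 6 days of 4.48 ± 2.38 against 7.07 ± 1.63. The T and B cell markers described with CISH were also lower in ISF at 6 and 10 days. The part of these markers in the difference of IL4R was not tested.

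**Figure D2:**
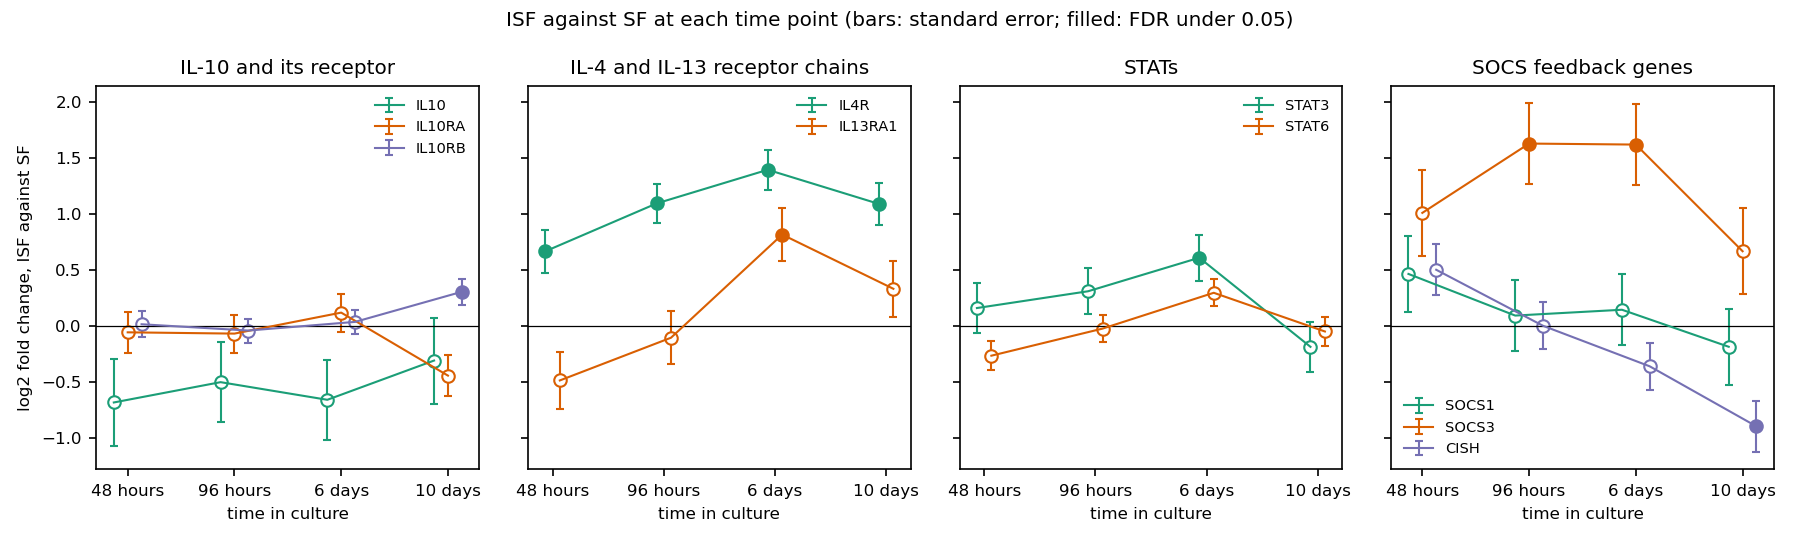
Log2 fold change of ISF against SF at each time point, by role, with standard errors from limma, and filled points where the FDR was under 0.05. IL4R was called at every time point, SOCS3 at 96 hours and 6 days, and CISH passed from above 0 at 48 hours to a called negative value at 10 days.

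IL13RA1 (ENSECAG00000019115), the partner of IL4R in the receptor that also binds IL-13, moved the other way on plating. It ran from 73.6 over a median of 110 to 129 GeTMM at 0 hours. After 48 hours ISF libraries ran from 26.0 over 57.0 to 79.1, and SF libraries from 52.7 over 76.1 to 115. The fall was 1.06 ± 0.24 on the log2 scale in ISF (log2 fold change -1.06, FDR 0.000196). In SF it was 0.57 ± 0.24 (log2 fold change -0.57, FDR 0.0478) and was lost under 10 of 17 alternatives, among them without Catnip, Dealings, Dreamer, Flash, Ollie or RimRun, with FDR up to 0.417. The ratio of IL4R to IL13RA1 per length went from a median of 1.18 at 0 hours to 8.91 in ISF after 48 hours, against 5.42 in SF.

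At 6 days IL13RA1 was higher in ISF. Levels were 47.1 to 99.5 GeTMM with a median of 70.0 in ISF, and 6.80 to 64.7 with a median of 51.5 in SF, where the lowest value was the library of Moon. Of 8 ISF libraries, 6 lay above the SF range. The difference was 0.82 ± 0.24 (FDR 0.00557) with that library and 0.48 ± 0.18 (FDR 0.0294) without it, so its size rested in part on Moon. It was lost with only the groups compared in the fit (FDR 0.138). In 7 of 8 horses IL13RA1 was higher in ISF. The replicate block also passed a rise of IL13RA1 in SF from 6 to 10 days (0.67, FDR 0.0443), for which the FDR without the block was 0.0903. Without the SF library of Moon and without the block, this change was 0.33 ± 0.18 (FDR 0.376).

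The cytokines that these receptors read were nearly missing from the cells. IL4 had a read in 13 of 68 libraries and IL13 in 4 of 68, with at most 6 and 1 reads, and neither passed the filter on low values.

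STAT3 (ENSECAG00000016439), the main signal carrier of the IL-10 receptor, had its highest mean at 48 hours in both fluids. It ran from 60.5 over a median of 77.7 to 94.7 GeTMM at 0 hours and from 107 over 119 to 132 in ISF at 48 hours, without overlap, a log2 fold change of 0.61 ± 0.21 (FDR 0.0141). In SF at 48 hours it ran from 93.0 over 107 to 130, and the change of 0.44 ± 0.21 was not called (FDR 0.0842). By 96 hours SF held 58.6 to 79.4 GeTMM with a median of 70.5, a fall of 0.63 ± 0.21 from 48 hours (log2 fold change -0.63, FDR 0.0214). Without Dreamer, Lurie, Ollie or RimRun this call was lost, as with values rescaled to 1 total. ISF held 77.5 to 96.9 with a median of 85.5, a change of -0.48 ± 0.21 from 48 hours that was not called (FDR 0.113), and 6 of 8 libraries lay above the SF range.

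The call of STAT3 between the fluids at 6 days rested on 1 library. Levels were 63.6 to 88.4 GeTMM with a median of 68.6 in ISF, and 6.66 to 71.7 with a median of 62.6 in SF, where Moon was lowest. The difference was 0.61 ± 0.21 (FDR 0.0188) with Moon's SF library and 0.24 ± 0.11 (FDR 0.0812) without it. Without it the spread of STAT3 shrank, and the difference at 96 hours, 0.31, was called (FDR 0.0320, against 0.380 with it). At 10 days the medians were 49.3 GeTMM in ISF and 63.0 in SF, and the difference of -0.18 ± 0.22 was not called.

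STAT6 (ENSECAG00000008705), the signal carrier of the IL-4 receptor, fell in both fluids after 48 hours. It ran from 229 over a median of 282 to 370 GeTMM at 0 hours. After 48 hours ISF libraries ran from 269 over 308 to 421, and SF libraries from 312 over 409 to 449. Only the rise in SF was called, 0.45 ± 0.12 (FDR 0.00213), and the change in ISF was 0.19 ± 0.12 (FDR 0.207). From 48 to 96 hours STAT6 fell by 0.74 ± 0.12 in ISF (log2 fold change -0.74, FDR 1.05e-05) and by 0.98 ± 0.12 in SF (log2 fold change -0.98, FDR 7.67e-09). From 96 hours to 6 days it fell further in SF by 0.68 ± 0.12 (log2 fold change -0.68, FDR 0.000207), and by 0.56 (FDR 0.000812) without the library of Moon, and with only the groups compared the call was lost (FDR 0.0666). At 10 days all libraries lay between 109 and 141 GeTMM, below every 0-hour library, with medians of 119 in ISF and 124 in SF.

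In ISF the fall after 96 hours was not called. It was -0.36 ± 0.12 on the log2 scale from 96 hours to 6 days (FDR 0.0534) and -0.32 ± 0.12 from 6 to 10 days (FDR 0.0855). With the replicate block both passed, at FDR 0.0272 and 0.0473. The difference between the fluids at 6 days, 0.30 ± 0.12, likewise went from an FDR of 0.0519 to 0.0335 with the block. It was 0.17 ± 0.11 (FDR 0.214) without the SF library of Moon. Per length STAT6 stood above STAT3 in every library, by a median of 3.62 times at 0 hours, of 2.43 times in ISF at 10 days and of 1.93 times in SF.

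In the fit without the replicate block, every call of the set over time after 48 hours was a decrease. The block also passed the rises of IL10RB and IL13RA1 given above. From 48 to 96 hours none rose and 2 fell in ISF (STAT6 and CISH), and none rose and 4 fell in SF (STAT3, STAT6, IL4R and SOCS3). Among all genes 8.54% rose and 10.4% fell in ISF, and 11.5% and 15.8% in SF. From 96 hours to 6 days no gene of the set was called in ISF (2.83% and 3.54% of all genes), with 2 at an unadjusted p under 0.05, and STAT6 alone fell in SF (0.432% and 1.61%). From 6 to 10 days limma called none in either fluid, with 2 at an unadjusted p under 0.05 in each, where 5.09% of all genes rose and 5.44% fell in ISF and 3.19% and 1.59% in SF.

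**Figure D3:**
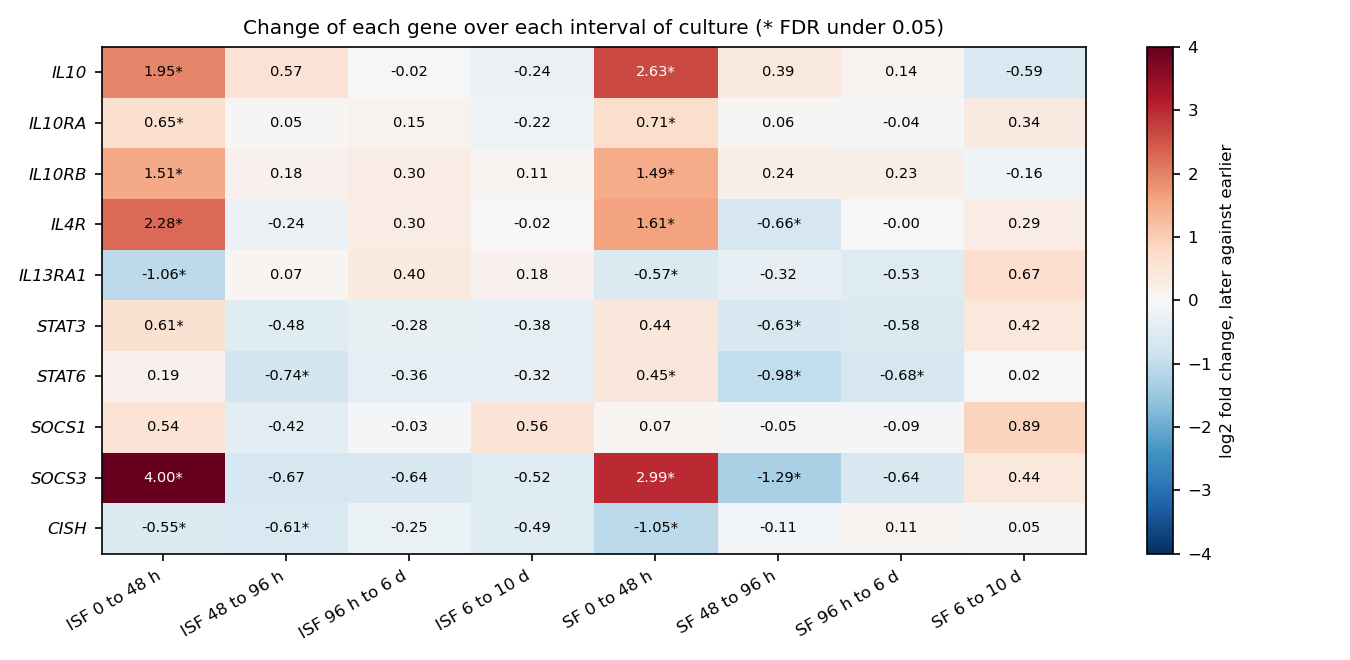
Log2 fold change of each gene from each time point to the next, in ISF (left 4 columns) and SF (right 4 columns), with an asterisk where the FDR was under 0.05. In this fit, without the replicate block, the called rises all came in the first 48 hours and every later call was a decrease.

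SOCS3 (ENSECAG00000001249), the feedback inhibitor that STAT3 induces, had the largest fold change of the 10 genes between neighboring time points on the log2(GeTMM + 1) scale. It ran from 3.65 over a median of 6.64 to 31.8 GeTMM at 0 hours, where Flash stood highest. After 48 hours ISF libraries held 114 to 194 with a median of 135, above every 0-hour library. SF libraries held 19.7 to 150 with a median of 102, and the lowest of these lay within the 0-hour range. SOCS3 rose by 4.00 ± 0.37 in ISF (FDR 2.55e-14) and 2.99 ± 0.37 in SF (FDR 5.98e-10), on the log2 scale. In SF it then fell by 1.29 ± 0.37 to 96 hours (log2 fold change -1.29, FDR 0.00600), and in ISF the change over that interval was -0.67 ± 0.37 (FDR 0.222).

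Between the fluids SOCS3 was called at 96 hours and 6 days, and not at 48 hours or 10 days. Its difference between the fluids changed by -0.34 ± 0.54 on the log2 scale from 48 hours to 10 days (FDR 0.839). Whether it was larger at 96 hours and 6 days than at 48 hours was not tested. At 48 hours 6 of 7 horses were higher in ISF and the difference of 1.01 ± 0.38 was not called (FDR 0.174). At 96 hours ISF held 60.1 to 131 GeTMM with a median of 84.0 and SF 12.6 to 56.4 with a median of 27.4, without overlap, and the log2 fold change was 1.63 ± 0.36 (FDR 0.00110). Without the ISF libraries labelled Dealings and Dreamer it was 1.60 ± 0.39 (FDR 0.00591). At 6 days ISF held 37.3 to 100 with a median of 59.4 and SF 7.67 to 46.9 with a median of 18.6, and 6 of 8 ISF libraries lay above the SF range. ISF was higher by 1.62 ± 0.36 on the log2 scale (FDR 0.000342), or 1.46 ± 0.37 (FDR 0.00128) without the SF library of Moon. All 8 horses were higher in ISF at 96 hours and at 6 days, with an exact permutation p of 0.00781, the smallest possible, and 0.0781 after adjustment. Without the pairs of Dealings and Dreamer at 96 hours, all 6 horses were higher, with an exact permutation p of 0.0313.

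At 10 days no difference in SOCS3 was called, at 0.67 ± 0.38 (FDR 0.223) and a 95% interval of -0.08 to 1.42. SF ran from 9.85 over 21.1 to 79.5 GeTMM and ISF from 25.1 over 34.7 to 79.4, and 5 of 7 SF libraries lay below the ISF range. The difference within horses ran from -0.84 in Lurie to 2.29 in RimRun. Flash was above the group mean for SOCS3 in all 7 of its groups, by 0.90 on average on the log2 scale.

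CISH (ENSECAG00000016867), an inhibitor induced by STAT5, was the only gene of the set whose difference between the fluids was called to change from 48 hours to 10 days. The set had none higher and 1 lower for this change, against 1.59% and 1.41% of all genes. Levels were low, from 10 to 175 reads. At 0 hours CISH ran from 4.83 over a median of 7.72 to 10.6 GeTMM. By 48 hours it had fallen to 2.97 to 6.60 with a median of 4.73 in ISF (log2 fold change -0.55 ± 0.22, FDR 0.0312) and to 1.48 to 6.19 with a median of 2.82 in SF (-1.05 ± 0.22, FDR 5.99e-05). The first of these falls was lost under 7 of 17 alternatives, with FDR up to 0.274, among them without Catnip, Dealings, Dreamer, Flash or Moon.

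The later course of CISH differed by fluid in the test of the change from 48 hours to 10 days. From 48 to 96 hours it fell by 0.61 ± 0.22 in ISF (log2 fold change -0.61, FDR 0.0407), a call lost under 9 of 17 alternatives, with FDR up to 0.117, among them without Catnip, Dreamer, Flash, Lurie, Ollie or RimRun, and the change in SF was -0.11 ± 0.22 (FDR 0.777). No later interval was called in either fluid. At 10 days ISF held 0.773 to 1.92 GeTMM with a median of 1.21, from 10 to 24 reads. SF held 0.941 to 5.45 with a median of 3.23, and the groups overlapped at RimRun, the lowest SF library. ISF against SF went on the log2 scale from 0.50 ± 0.23 at 48 hours (FDR 0.282) over 0.00 and -0.36 at 96 hours and 6 days to -0.90 ± 0.23 at 10 days (FDR 0.00255). CISH was higher in ISF in 6 of 7 horses at 48 hours and lower in 6 of 7 at 10 days, with exact permutation p of 0.0469 and 0.0313 and 0.117 and 0.0962 after adjustment. The change of the difference was -1.40 ± 0.32 (FDR 0.00642). Without Catnip its FDR was 0.0542.

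At 10 days lymphoid markers, like CISH, were lower in ISF. At 48 hours mean CISH was higher in ISF, at 4.83 GeTMM against 3.27 in SF. The mean log2 level of the T cell markers was then lower in ISF, at 3.79 ± 0.612 against 4.25 ± 0.889 (SD, n = 7 both). The summed level of the 5 T cell markers was 127 to 321 GeTMM at 0 hours. After 48 hours it was 29.8 to 123 in ISF and 38.8 to 233 in SF, and after 10 days 4.33 to 14.8 in ISF and 23.5 to 199 in SF, without overlap. All 5 T cell and all 4 B cell markers tested were called lower in ISF at 6 and at 10 days, and none of either at 48 hours. CISH itself was not called between the fluids at 6 days (FDR 0.202). No T cell marker was at 0 throughout a group. At 10 days the 5 fibroblast or stromal markers were also called lower in ISF, with summed levels of 0.123 to 49.2 in ISF and 0.406 to 4040 in SF. The part of these cells in the level of CISH was not tested.

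SOCS1 (ENSECAG00000026965), an inhibitor of interferon and IL-4 signaling, was called in no comparison. Its level over all libraries was 0.751 to 16.0 GeTMM, from 8 to 220 reads. The spread between horses was wide: within a group the highest library held 2.26 to 9.65 times the lowest. At 10 days it ran from 1.75 over 5.61 to 16.0 in SF and from 2.44 over 5.69 to 10.5 in ISF, and the log2 fold change between them was -0.18 ± 0.34 (FDR 0.763). The largest change over time was 0.89 ± 0.33 in SF from 6 to 10 days (FDR 0.0944). Per length SOCS3 held 29.0 times the level of SOCS1 in the median ISF library at 48 hours and 8.42 times at 10 days.

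**Figure D4:**
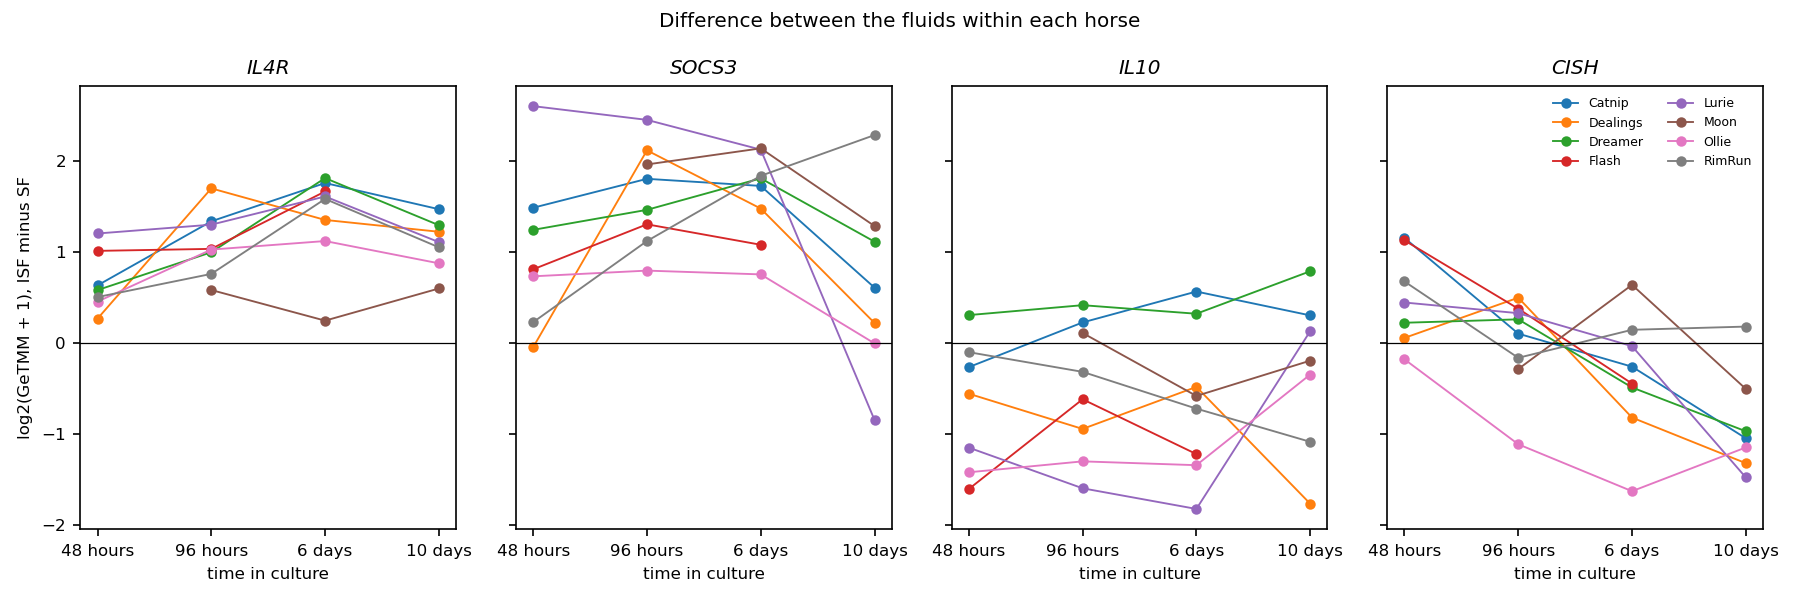
Difference between the ISF and the SF library of each horse, in log2(GeTMM + 1), for IL4R, SOCS3, IL10 and CISH at each time point. All horses lay above 0 for IL4R, all for SOCS3 at 96 hours and 6 days, IL10 was mixed at every time point, and CISH moved from mostly above 0 at 48 hours to below 0 in 6 of 7 horses at 10 days.

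Ordered by mean level, each gene had 8 pairs of neighbouring groups, and in most of these pairs the ranges of libraries overlapped. IL10, IL10RB and IL4R had 1 pair each without overlap, which in each set the 0-hour group apart from the lowest culture group. The other 7 genes had none. For STAT6 the order ran from SF at 48 hours with a mean of 390 GeTMM to ISF at 10 days with 120, and for CISH from 0 hours with 7.58 to ISF at 10 days with 1.27.

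By Pearson correlation of log2 levels over the 68 libraries, the genes most like IL10 were KCNK6, RIN2 and MRC1 (r of 0.914, 0.908 and 0.903). Those most like IL4R were BHLHE40, TIMP1 and BTBD19 (0.881, 0.852 and 0.849). STAT6 was most like RARA, ELL and RGS3 (0.969, 0.954 and 0.950), and STAT3 most like NUP98, PPP2R2A and DPYD (0.921, 0.919 and 0.914). IL10RB went with SNX12 and CD68, among others (0.948 and 0.945), and IL10RA with C2, PTPRB and RIC1 (0.816, 0.793 and 0.785). SOCS3 was most like PLK3, SEMA6B and VAV1 (0.894, 0.845 and 0.817), and CISH most like IRF1, NLRC5 and STAT5A (0.766, 0.736 and 0.734). For IL13RA1 they were CPD, CAMK2G and AGPS (0.864, 0.826 and 0.825), and for SOCS1 TGM2, SLAMF7 and TLE1 (0.644, 0.608 and 0.607). Within the set the highest value was 0.794, between IL4R and SOCS3, followed by 0.758 between IL10 and IL10RB and 0.741 between STAT3 and STAT6. The points share horses, time points and fluids, so these values are descriptions.

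The rest of the pathway was read from 8 lists with 86 genes, of which 76 were found by symbol and 61 tested. Of the 61, 1 was higher and 1 lower in ISF at 48 hours. At 96 hours 7 were higher and 3 lower, at 6 days 9 were higher and 9 lower, and at 10 days 3 were higher and 10 lower. Of all genes tested, 0.872% were called higher at 48 hours and 0.81% lower, 6.16% and 4.3% at 96 hours, 16.7% and 13.6% at 6 days, and 9.95% and 10.8% at 10 days. The median log2 fold change of the 61 at 6 days was 0.10. Without the SF library of Moon the counts at 6 days were 8 higher and 14 lower. Without the ISF libraries labelled Dealings and Dreamer those at 96 hours were 3 and 3.

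Of 13 kinases, adaptors and phosphatases tested, PTPN11, JAK2 and PTPN1 were higher and PIAS2 lower in ISF at 6 days. Among all genes tested, 16.7% were higher and 13.6% lower at that time. PTPN1, a tyrosine phosphatase that acts on JAK kinases, had mean levels of 204 ± 43.2 GeTMM in ISF and, without overlap, 118 ± 20.4 in SF (SD, n = 8), a log2 fold change of 0.78 ± 0.12 (FDR 1.22e-06), and was called at 96 hours and 10 days too. JAK2, a kinase of several cytokine receptors, was higher by 0.73 ± 0.20 (FDR 0.00297), and by 0.42 ± 0.13 (FDR 0.0103) without the SF library of Moon. For PTPN11, another tyrosine phosphatase, these were 0.63 (FDR 0.00675) and 0.34 (FDR 0.0329). PIAS2, an inhibitor of STAT factors, was lower, at -0.46 ± 0.11 (FDR 0.00128). The kinases JAK1 and TYK2, which serve the IL-10 receptor, were not called at 6 days. Without the SF library of Moon, JAK1 was lower, at -0.42 ± 0.09 (FDR 0.000150, against 0.893 with it). TYK2 was lower at 48 hours, at -0.64 ± 0.18 (FDR 0.0423).

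Of 7 other STAT and SOCS genes tested, STAT4, STAT5A and STAT5B were lower in ISF at 6 and 10 days and none was higher, against 13.6% and 10.8% of all genes called lower. STAT5B, a carrier of interleukin and growth factor signals, had mean levels at 10 days of 9.96 ± 1.24 GeTMM in ISF and, without overlap, 24.0 ± 7.95 in SF (SD, n = 7), at -1.15 ± 0.19 (FDR 4.42e-06). At 6 days it was -0.61 ± 0.17 (FDR 0.00502). STAT4, the factor that IL-12 activates in lymphocytes, was lower by 0.76 ± 0.25 at 6 days (log2 fold change -0.76, FDR 0.0178). The T and B cell markers above moved the same way at these time points, and their part was not tested.

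Of 10 tested genes that IL-10 is known to induce in macrophages, 4 were higher in ISF at 6 days and none lower, against 16.7% and 13.6% of all genes, with a median log2 fold change of 0.64. None was called at 48 hours, and 2 were higher and none lower at 96 hours and again at 10 days. DDIT4, HMOX1 and ETV3 were among the 4. ETV3 was at 0.56 (FDR 0.0197), and at 0.26 (FDR 0.113) without the SF library of Moon. HMOX1 was higher by 1.12 at 96 hours (FDR 0.00947), a call lost without the ISF libraries labelled Dealings and Dreamer (FDR 0.0654). DDIT4, a stress-induced inhibitor of mTOR, had a mean of 106 ± 156 GeTMM in ISF against 21.2 ± 7.96 for SF (SD, n = 8), at 1.47 ± 0.48 (FDR 0.0155). Its ranges overlapped, at 16.3 to 475 GeTMM in ISF and 8.81 to 34.1 in SF. CD163 and IL1RN, 2 well-known targets of IL-10, were at 0.72 (FDR 0.235) and 0.78 (FDR 0.116) and were not called.

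Of 11 tested genes that IL-4 is known to induce in macrophages, 1 was higher and 3 were lower in ISF at 6 days. Among all genes tested, 16.7% were higher and 13.6% lower at that time. The median log2 fold change of the 11 was 0.14. At 48 hours 1 was higher and none lower, at 96 hours 2 and 2, and at 10 days none and 2. BATF3, a transcription factor of the AP-1 family, was higher at 48 hours, 96 hours and 6 days, by 1.46, 1.27 and 1.22, the last with an FDR of 0.00115, and without overlap at 48 hours. F13A1, a clotting factor subunit, was lower at 6 days by 2.16 ± 0.58 (log2 fold change -2.16, FDR 0.00302), and FCER2, the low-affinity IgE receptor CD23, by 1.81 ± 0.39 (log2 fold change -1.81, FDR 0.000203). FCER2 is also known from B cells, whose markers moved the same way. MRC1, the mannose receptor, was at 0.10 (FDR 0.887). IRF4 was lower by 1.07 ± 0.24 (log2 fold change -1.07, FDR 0.000510).

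Among 8 transcription factors known to bind or induce IL10, CEBPB was higher and BATF lower in ISF at 6 days. Of all genes tested, 16.7% were higher and 13.6% lower at that time. CEBPB, a driver of myeloid gene expression, had a mean of 220 ± 75.2 GeTMM in ISF against 100.0 ± 28.9 for SF (SD, n = 8), at 1.12 ± 0.24 (FDR 0.000183). BATF, an AP-1 factor of lymphocytes and macrophages, was 9.44 ± 6.50 and 54.9 ± 53.7, without overlap, at -2.29 ± 0.29 (FDR 6.39e-09). MAF was lower at 10 days, by 1.10 ± 0.40 (log2 fold change -1.10, FDR 0.0404), and at 6 days it went from -0.71 (FDR 0.146) to -1.14 (FDR 0.00425) without the SF library of Moon. None of the 7 tested cytokines and receptors of the IL-6 family and its relatives was called at 6 days, and IL6R was lower at 10 days by 1.61 ± 0.32 (log2 fold change -1.61, FDR 0.000110). Without the SF library of Moon, IL6R was lower at 6 days too, at -0.69 ± 0.22 (FDR 0.0119, against 0.540 with it).

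Among the remaining ligands and receptor chains, IL24 was the only 1 of 7 listed ligands to be tested and was lower in ISF at 6 days by 0.82 ± 0.20 (log2 fold change -0.82, FDR 0.00127), at means of 0.335 ± 0.301 and 1.45 ± 0.917 GeTMM (SD, n = 8 each). Of 4 partner or decoy receptor chains tested, none was called at 6 days. IL22RA2, the soluble decoy receptor of IL-22, was higher at 96 hours at 1.49 ± 0.45 (FDR 0.0235), a call lost without the ISF libraries labelled Dealings and Dreamer (FDR 0.0806), and IFNLR1, the interferon lambda receptor chain that pairs with IL10RB, was lower at 10 days by 1.18 ± 0.18 (log2 fold change -1.18, FDR 1.62e-06).

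**Figure D5:**
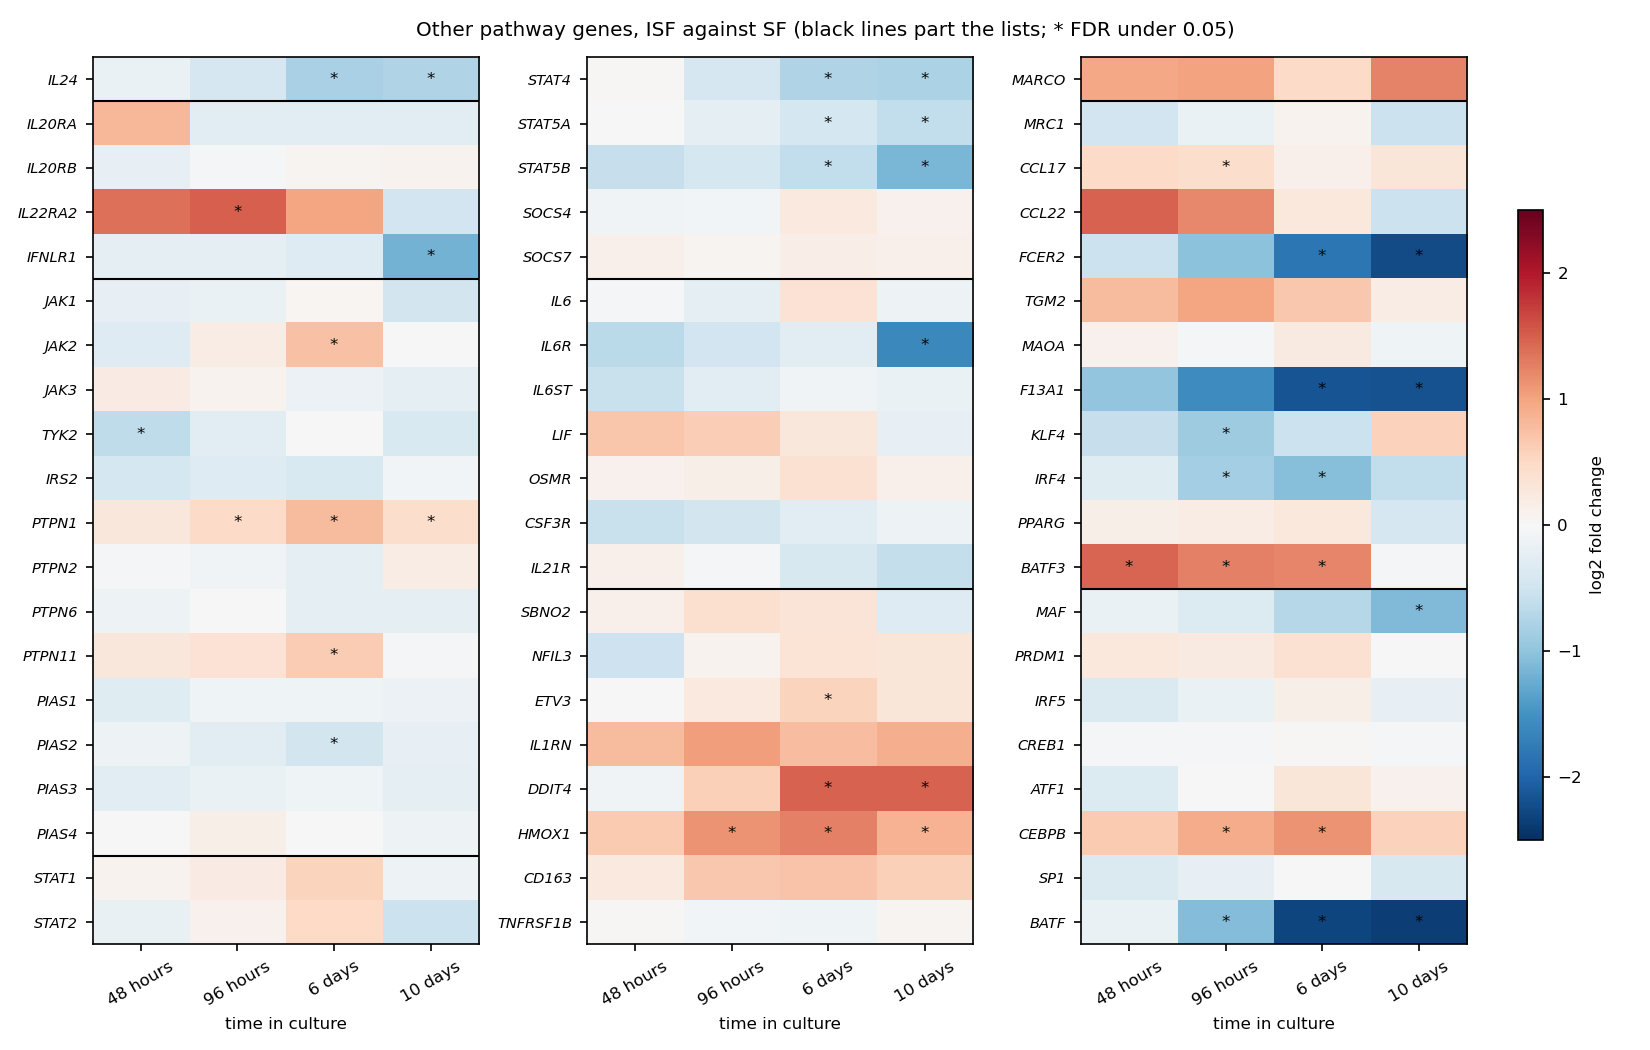
Log2 fold change of ISF against SF at 4 time points for the other pathway genes tested, all but 1 of the 61, in the order of their lists, which black lines part, with an asterisk where the FDR was under 0.05. PTPN1, HMOX1, BATF3 and BATF were each called at 3 of the 4 time points, BATF lower and the others higher in ISF.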

How the data were processed

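RNA sequencing of 68 libraries from 8 horses was used. Per the labels and the study's methods, reads were trimmed by the authors, aligned with STAR 2.7.2a to EquCab3.0 and counted per gene. The deposited table holds GeTMM, RPKM-like values that the authors scaled across libraries by trimmed means. Reads were recovered from the steps between values for 24064 of 24065 genes, and cover counting error only. A gene length was accepted only where all values lay within 0.02 reads of a whole number, so this bound is a setting and not a measured accuracy.

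Genes that reached 0.5 GeTMM in 7 or more libraries were tested as log2(GeTMM + 1) with limma 3.58.1 in R 4.3.3 (lmFit, eBayes with trend) in 1 fit of 9 groups without a horse term, two-sided, with Benjamini-Hochberg FDR over 14570 genes for each of 13 comparisons. Both the fit and the recovery of reads were tested on simulated data. A first version of the recovery failed on 1 simulated table and was corrected, which left the reads recovered from the deposited table unchanged. Differences within horses used exact two-sided permutation tests that flip signs, adjusted over 40 tests. Libraries of the same horse came from the same animal, so the labels pair them, and in 26 of 30 ISF and SF pairs deviations from the group means correlated above 0.1 (median 0.358). This replicate block was an alternative.

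All 10 members were named, the 2 highest and 2 lowest called genes of each list at 6 days, and for each member the 3 genes with the highest correlation. Genes named beyond these (such as CD163, IL1RN, HMOX1, ETV3, STAT5A, IRF4, MAF, IL6R, MRC1, JAK1, TYK2, PTPN11, IL22RA2 and IFNLR1) were chosen after their values were seen. Members and lists were chosen with earlier results of these data known. Values of 2 genes that this rule names are not reported here. Genomic sequences and positions were not used here.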

Additional observations from a re-analysis of the deposited data

Results flagged for a closer look

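Within groups of 7 or 8 libraries, the highest or lowest library of a gene was tested for standing apart from the others by the gap to its nearest neighbor relative to the range. Of 90 groups, 6 held such a library, where chance alone flags about 1 in 20. Of these, 3 came from the SF library of Moon at 6 days, with 6.80 GeTMM for IL13RA1, 6.66 for STAT3 and 64.6 for STAT6. Moon was also the lowest ISF library for IL4R at 6 days, at 315 GeTMM, and for IL10RB at 10 days, at 420. RimRun was the highest ISF library for IL10RB at 48 hours, at 510 GeTMM.

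The difference between ISF and SF changed for CISH from 48 hours to 10 days, by -1.40 on the log2 scale, tested with an interaction term in limma (FDR 0.00642). It was higher in ISF in 6 of 7 horses at the start of this span and lower in 6 of 7 at its end.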

How the results depend on the processing

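Of the 34 fold changes of members that were called, 24 kept their call under all 17 alternatives, and no called value changed direction. Those that did not keep it under each alternative are named with the results. The cause was not tested. The count of members called in ISF against SF at 48 hours, 1 in the report, was 0 with a pseudocount of 0.1, without the filter on low values, by voom on recovered reads and with values rescaled to 1 total, 4 with library weights, and 0 to 1 with a horse left out. At 6 days the count of 4 became 2 with only the groups compared, 3 with library weights or without the SF library of Moon, and 6 with the replicate block. STAT3 was also lost at 6 days with values rescaled to 1 total and without Moon, and STAT6 was added without Catnip. In ISF against SF at 96 hours STAT3 was added under 4 of 17 alternatives. At 10 days IL10RB was lost under 9 and IL10RA added under 4. In ISF from 48 to 96 hours the count of 2 was 1 with a pseudocount of 0.1, without the filter and by voom, 4 with library weights and with only the groups compared, and 1 to 3 with a horse left out. In ISF from 96 hours to 6 days the count of 0 became 2 with the replicate block (the paired fit), library weights, only the groups compared or without the SF library of Moon, and 0 to 2 with a horse left out. In ISF from 6 to 10 days the count of 0 was 1 with the replicate block, 2 with library weights, only the groups compared or without the SF library of Moon, and 0 to 2 with a horse left out. In SF the count of 1 from 96 hours to 6 days was 0 with only the groups compared, and the count of 0 from 6 to 10 days was 1 with the replicate block. For the change of the difference from 48 hours to 10 days, the count of 1 was 2 with library weights and without the SF library of Moon, and 0 to 1 with a horse left out, with 0 without Catnip. The replicate block added 8 calls to the 34 and lost none. Rescaling to 1 total, chosen after the data were seen, moved the median log2 fold change of all genes from -0.022 to -0.176 in ISF against SF at 10 days, to 0.153 and 0.174 in ISF and SF from 0 to 48 hours, to -0.132 in the interval of SF that ended at 6 days, to 0.184 in that ending at 10 days, and to -0.176 for the change of the difference. It turned no called member. Few reads limit IL10 at 0 hours, SOCS1 and CISH.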
